A study of Mus musculus with 5 samples.

Results

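Genes of mature B cells and of antibody-secreting plasma cells were followed in mouse pro-B cells that had lost Early B-cell factor 1 (Ebf1), a transcription factor needed for commitment to the B lineage. The 7 genes are Ms4a1, Cr2, Ighm, Bcl6, Prdm1, Xbp1 and Zbtb20, chosen by name, and every array feature annotated with 1 of these symbols alone was taken. They are 7 of the 19087 genes with a feature of their own and account for 23 of the 45018 features on the array: 13 for Ighm, 3 for Zbtb20, 2 each for Ms4a1 and Cr2, and 1 each for Bcl6, Prdm1 and Xbp1. A filter on dim features left 21 of the 23.

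Total cells from the livers of embryos 16.5 days post coitum had been grown on OP-9 stromal cells with interleukin-7 until pro-B cells remained, per the labels. The control group was Ebf+/fl (n = 2, arrays 3 and 6), with 1 floxed Ebf1 allele, and the deleted group was Ebf fl/fl (n = 3, arrays 4, 5 and 7), with both alleles floxed. Both groups received 4-hydroxytamoxifen (4OHT) for 24 hours, the drug that switches on the Cre recombinase, and were then cultured for 4 more days, so the control cells had also been through deletion, of a single allele. The sample names carry a first number, 111 in the control group and 93 in the deleted group, so whatever that number stands for cannot be told apart from genotype. Nothing in the labels ties the samples to separate embryos. Xist, the transcript of the inactive X chromosome, was high in control 6 and deleted 7 (4.67 and 4.24, in the level defined below) and between -6.93 and -6.27 in the other 3 arrays, so arrays high and low in Xist within a group are not repeats of 1 RNA. Whether deleted 4 and deleted 5 came from separate embryos is not known, and the p-values measure the spread between these 5 samples.

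The members are known for their roles in stages after the pro-B cell, although some, such as Ighm and Bcl6, gave bright signals in the control pro-B cells as well. A pro-B cell rearranges its immunoglobulin heavy chain genes, an immature B cell displays IgM, and a mature B cell adds surface molecules such as CD20 and the complement receptor CD21. Germinal centre B cells depend on the repressor Bcl6, whereas plasma cells depend on the repressor Blimp-1, encoded by Prdm1, and on the secretory activator Xbp1. Bcl6 and Blimp-1 repress each other's genes, and Zbtb20, a BTB zinc finger protein of the same family as Bcl6, is also active in germinal centre and plasma cells.

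Ms4a1 and Prdm1 were higher in the deleted group, by 8.43-fold and 2.63-fold, and Zbtb20 was lower, by 1.84-fold, each at its brightest probe. Bcl6, Xbp1, Ighm and Cr2 did not pass the test. Of the 21 features tested, 3 were called higher and 3 lower, all 6 of them from these 3 genes. Over all 28007 features tested, 5.93% were called higher and 6.88% lower (1661 and 1926 features, against 811 and 1572 without scaling between arrays), and with 1 probe per gene the shares were 7.52% and 7.97% of 13432 genes. The test was limma's moderated test with Benjamini-Hochberg adjustment over all features tested, two-sided, with a threshold of 0.05. The median log2 fold change was 0.09 over all features, where a fold change is deleted over control.

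Each level is the log2 of a feature's intensity over the 75th percentile of its own array, so 0 is that percentile, and levels of different probes are not comparable. In a bulk sample, fewer cells of a type and less RNA per cell cannot be told apart. As a check on the deletion, the Ebf1 probe AK036716 fell by 3.02 on the log2 scale (SE 0.35, adjusted p = 0.00375), while the probe NM_007897 gave -0.25 (adjusted p = 0.317) and AK042875 gave 0.44 (adjusted p = 0.27). Which part of the gene each probe reads was not determined.

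**Figure D1:**
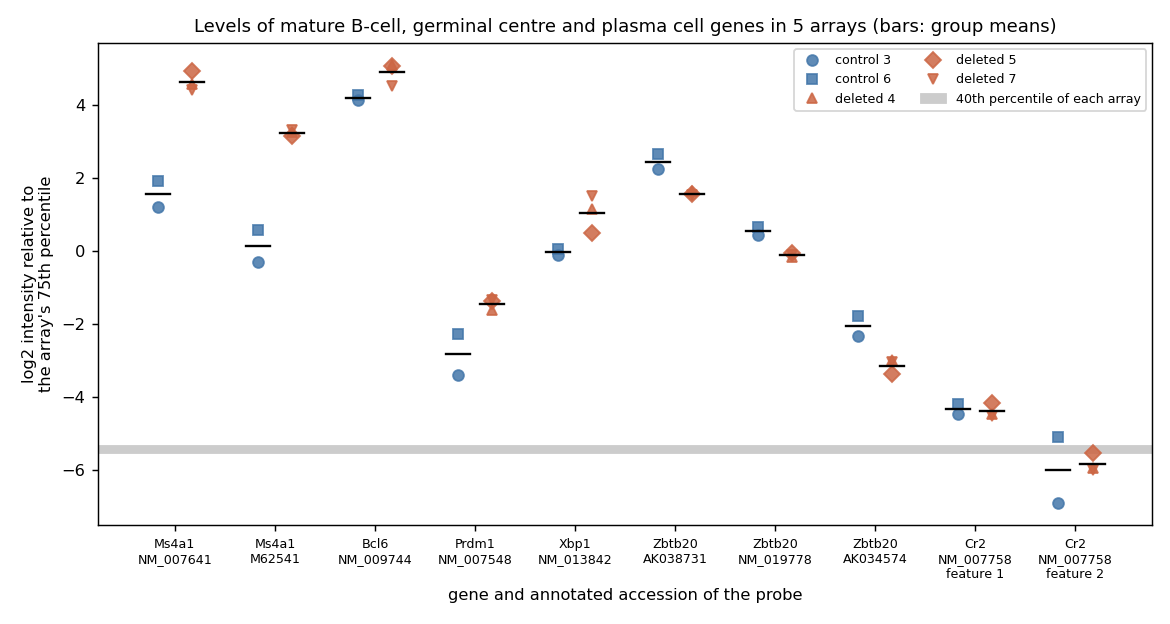
Level of the probes of 6 member genes in each of the 5 arrays, in log2 intensity relative to the array's 75th percentile, with 1 marker per array, a bar at each group mean and a grey line at the arrays' 40th percentiles. The 3 deleted arrays lie above both control arrays for Ms4a1, Bcl6, Prdm1 and Xbp1 and below both for the 3 Zbtb20 probes, and the groups overlap for Cr2.

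Ms4a1, the gene of CD20, a surface protein that appears on B cells after the pro-B stage and is lost on plasma cells, changed most among the members. Its probe NM_007641 read 1.21 in control 3 and 1.93 in control 6, against 4.59, 4.94 and 4.42 in deleted 4, 5 and 7. Its second probe, M62541, read -0.29 and 0.58 in the controls and 3.26, 3.17 and 3.32 in the deleted arrays. At both probes the groups were far apart, and the deleted arrays lay closer together than the controls did. The first probe rose by 3.08 on the log2 scale (SE 0.26, 95% interval 2.47 to 3.68, adjusted p = 0.00125). Its mean was 1.57 ± 0.50 (SD, n = 2) in the controls and 4.65 ± 0.26 (SD, n = 3) in the deleted arrays. The second rose by 3.11 (SE 0.26, adjusted p = 0.00122). Both probes passed in every alternative fit that tested them, 17 for the first and 15 for the second, with no adjusted p above 0.0111.

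Prdm1, the gene of Blimp-1, was a dimmer probe in all 5 arrays. It read -3.39 in control 3 and -2.28 in control 6, against -1.60, -1.37 and -1.35 in deleted 4, 5 and 7. The groups did not overlap, but the 2 controls differed by more than the gap between control 6 and the nearest deleted array. The level rose by 1.39 (SE 0.34, 95% interval 0.59 to 2.20, adjusted p = 0.043). Its mean was -2.83 ± 0.78 (SD, n = 2) in the controls and -1.44 ± 0.14 (SD, n = 3) after deletion. This call rests on the control arrays: without control 3 the log2 fold change was 0.84 (adjusted p = 0.17), and without control 6 it was 1.95 (adjusted p = 0.017). Leaving out deleted 4, 5 or 7 ended the call, with adjusted p = 0.0813, 0.109 and 0.0949. So did fitting without scaling between arrays (0.1), without the filter (0.0676) or without the variance trend (0.0737).

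Zbtb20 was read by 3 probes, and all 3 fell. AK038731 read 2.26 and 2.66 in control 3 and 6, against 1.64, 1.56 and 1.53 in deleted 4, 5 and 7. NM_019778 read 0.44 and 0.66 in the controls and -0.16, -0.05 and -0.11 in the deleted arrays. AK034574, the dimmest, read -2.33 and -1.77 against -3.0, -3.38 and -3.04. At each probe every deleted array lay below both controls. The fall was -0.88 on the log2 scale at AK038731 (SE 0.17, 95% interval -1.29 to -0.48, adjusted p = 0.021), -0.66 at NM_019778 (SE 0.16, adjusted p = 0.0424) and -1.09 at AK034574 (SE 0.27, adjusted p = 0.0458). At the brightest of them, leaving out control 6 ended the call (-0.68, adjusted p = 0.0934), as did leaving out deleted 4, 5 or 7 (0.0523, 0.0549 and 0.0519) or the variance trend (0.0539), and the dimmer probes passed in 5 and 3 of their 15 alternatives.

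The promoters of Prdm1 and Zbtb20 are shown because these are the called members that the RefSeq promoter table (GRCm38.p6) holds; Ms4a1 and Ighm are not listed there. Each window runs from 250 bases before to 50 after the annotated start, 5′ to 3′ on the gene's strand, with E-boxes (CANNTG, the sites of factors such as the E2A protein encoded by Tcf3) in capitals. The Prdm1 window is chr10:44458699-44458998 on the minus strand and the Zbtb20 window is chr16:43247034-43247333 on the plus strand.
Prdm1: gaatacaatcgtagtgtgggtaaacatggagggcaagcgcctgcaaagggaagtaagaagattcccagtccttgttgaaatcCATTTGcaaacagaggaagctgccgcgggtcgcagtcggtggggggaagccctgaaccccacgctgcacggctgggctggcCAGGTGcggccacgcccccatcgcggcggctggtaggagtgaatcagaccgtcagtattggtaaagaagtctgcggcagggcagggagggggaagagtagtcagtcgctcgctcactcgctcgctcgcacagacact
Zbtb20: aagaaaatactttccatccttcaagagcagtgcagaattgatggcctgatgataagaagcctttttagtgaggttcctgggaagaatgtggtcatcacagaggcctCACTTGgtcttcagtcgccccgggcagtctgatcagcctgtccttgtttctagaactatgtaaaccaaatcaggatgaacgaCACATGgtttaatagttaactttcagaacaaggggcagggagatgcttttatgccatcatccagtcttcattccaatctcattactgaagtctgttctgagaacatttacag
Each holds 2 E-boxes, CATTTG and CAGGTG for Prdm1 and CACTTG and CACATG for Zbtb20. Across the 6 windows of the 5 member genes with an entry (Bcl6, Cr2, Prdm1, Xbp1 and Zbtb20), 5 hold at least 1 E-box, and 72.3% of all 32851 promoter windows do. The palindrome CCCNNGGG, the core of the sequence bound by Ebf1, is in 0 of the 6 and in 13.7% of all windows. Both motifs read the same on either strand and were searched as spelled here. A match or its absence in these letters is a description of the window only.

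Bcl6, the repressor of the germinal centre programme, was a bright probe in all 5 arrays. It read 4.13 and 4.28 in control 3 and 6, against 5.12, 5.07 and 4.53 in deleted 4, 5 and 7. The groups did not overlap, and deleted 7 lay nearest the controls. The log2 fold change was 0.70 (SE 0.21, 95% interval 0.20 to 1.20, adjusted p = 0.0777), which did not pass the threshold. The group means were 4.21 ± 0.10 (SD, n = 2) and 4.91 ± 0.33 (SD, n = 3). Without deleted 7 it was 0.89 and passed (adjusted p = 0.0291).

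Xbp1, the activator of the secretory pathway and of the unfolded protein response, read -0.10 and 0.06 in control 3 and 6 and 1.16, 0.50 and 1.51 in deleted 4, 5 and 7. The groups did not overlap, and the deleted arrays were more spread (SD 0.51) than the controls (SD 0.11). The log2 fold change was 1.07 (SE 0.29, 95% interval 0.38 to 1.77, adjusted p = 0.059), which did not pass. It passed without deleted 5, the lowest of its group (1.35, adjusted p = 0.0232), with array weights (1.19, adjusted p = 0.0255) and under the stricter dim-feature filter, set at the 60th percentile (0.0483). The array reads total Xbp1 transcript, and the spliced form that makes the active protein was not measured.

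Ighm, the constant region of the IgM heavy chain, was among the brightest signals and did not differ between the groups beyond their spread. Of its 13 features, 11 are annotated with the same transcript, AK088666, and 10 of these lay within 0.5 of their shared median on each array. Their mean level was 6.87 and 7.06 in control 3 and 6, and 7.23, 6.53 and 7.19 in deleted 4, 5 and 7. The deleted arrays fell on both sides of the controls, with deleted 5 the lowest. Averaged, their log2 fold change was 0.02 (SE 0.24, 95% interval -0.57 to 0.60, adjusted p = 0.976). Since the 10 features move together they count as 1 measurement and not as 10.

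Feature 6 of that transcript stood apart from the other 10. It read 9.25 and 9.33 in control 3 and 6 and 9.49, 9.85 and 9.24 in deleted 4, 5 and 7, and its log2 fold change was 0.23 (SE 0.22, adjusted p = 0.515). Deleted 5, which was lowest in the other 10 features, was highest here. Its intensities before scaling ran from 241005 to 281222, where the brightest feature of each array lay between 484240 and 592173, and saturation was not recorded in the table. AJ294737 read 6.88 and 7.43 in the controls and 6.79, 7.06 and 6.77 in the deleted arrays, and its log2 fold change was -0.29 (SE 0.21, 95% interval -0.79 to 0.21, adjusted p = 0.409). The last Ighm probe, U26470, lay below the 40th percentile on all 5 arrays, from -7.20 to -6.62, and has no fold change.

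**Figure D2:**
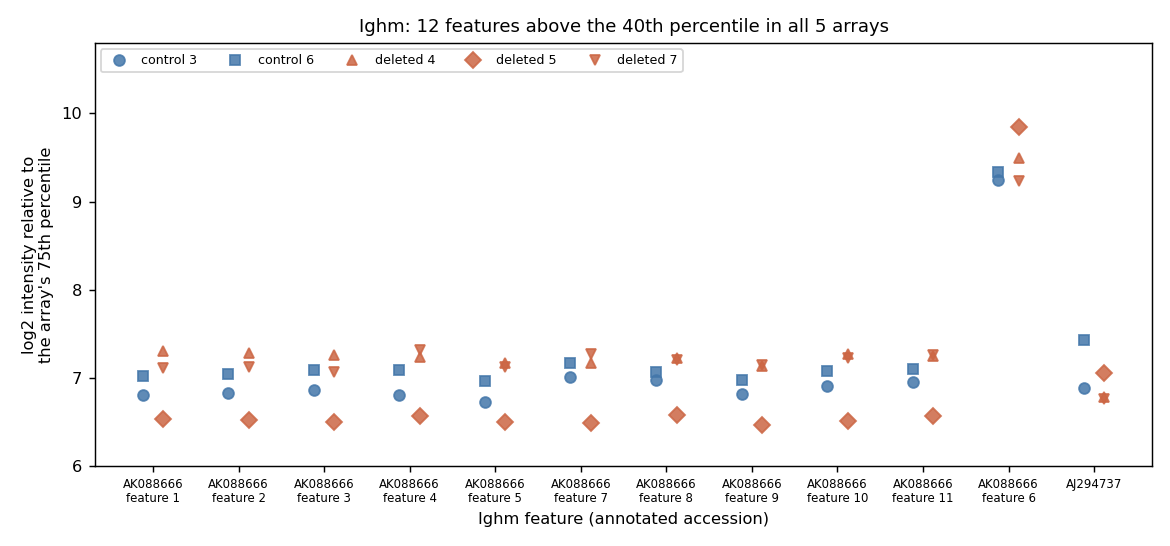
Level of the 12 tested Ighm features in each of the 5 arrays, in log2 intensity relative to the array's 75th percentile, with 1 marker per array. In 10 of the 11 features of AK088666 deleted 5 is the lowest array, and in feature 6 it is the highest, at 9.85.

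Cr2, which in the mouse encodes the complement receptors CD21 and CD35 of mature B cells, was near the lower end of the measured range. Its feature 1 read -4.45 and -4.20 in control 3 and 6 and -4.46, -4.16 and -4.51 in deleted 4, 5 and 7. The groups overlapped throughout, and the log2 fold change was -0.05 (SE 0.32, 95% interval -0.81 to 0.71, adjusted p = 0.937). Feature 2 exceeded the 40th percentile on 1 of 5 arrays, control 6 at -5.09, and was not tested. The 40th percentile lay between -5.54 and -5.34.

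Over the member probes tested, the groups did not overlap with the deleted arrays higher in 5 (both Ms4a1 probes, Bcl6, Prdm1 and Xbp1) and with the deleted arrays lower in 3 (the Zbtb20 probes). Over all features tested the shares were 28.4% and 20.6%, so arrays that lie apart are common in these data.

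**Figure D3:**
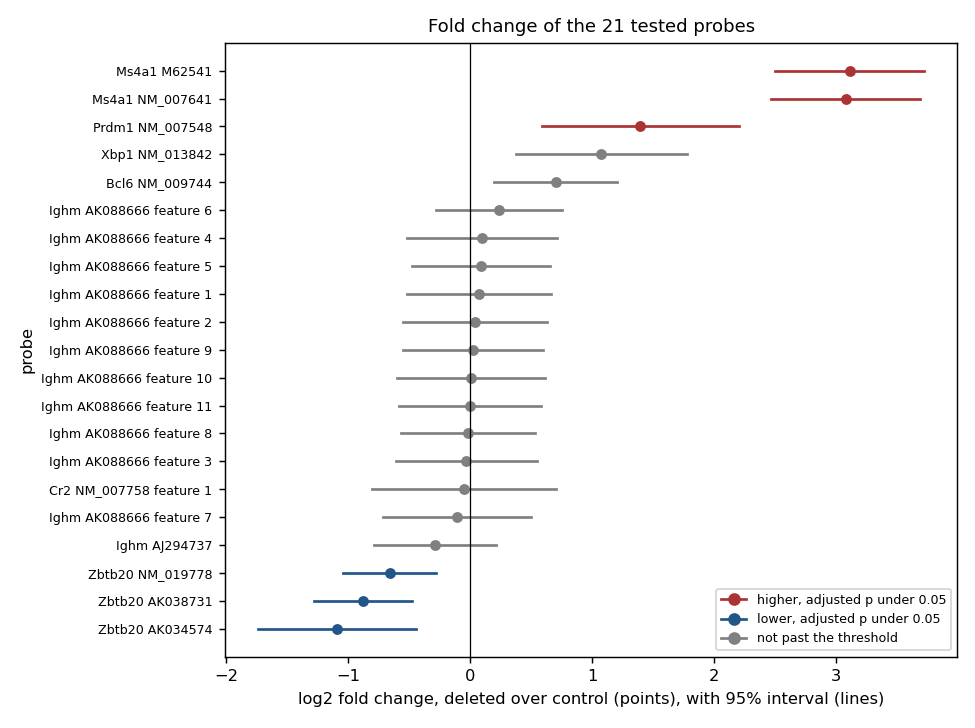
Log2 fold change, deleted over control, of the 21 member features tested, with 95% intervals from limma as lines and a vertical line at 0. Red and blue points passed an adjusted p of 0.05: the Ms4a1 probes near 3.1, Prdm1 at 1.39 and the 3 Zbtb20 probes between -1.09 and -0.66.

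Other genes followed the members across the 5 arrays. For each member whose brightest probe moved by at least 1 on the log2 scale, the genes with the smallest root mean square difference in level, after each was centred on its own mean, were taken. Nearest to Ms4a1 were Cebpb, a transcription factor of myeloid cells (difference 0.159, log2 fold change 3.34), and Myo1d, a myosin (0.162 and 3.05). Nearest to Prdm1 were Gadd45g, a stress-response gene (0.0405 and 1.35), and Bmp8a, a secreted growth factor (0.0968 and 1.44, not called at adjusted p = 0.0953). Nearest to Xbp1 were Hsdl1 (0.09 and 0.99, not called) and the ubiquitin ligase Rnf125 (0.109 and 1.17). These are likenesses over 5 arrays, picked from all genes tested.

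Cell type markers were read beside the members, as the summed linear level of each list's tested genes in multiples of the array's 75th percentile. Levels of different probes are not comparable, so a sum follows mostly its brightest probes and can move against the list's median. Of the 10 pro-B and B lineage markers tested, 6 fell and 0 rose, among them Rag1 and Dntt, enzymes of immunoglobulin gene rearrangement, and the list summed to 1640 to 1771 in the controls and 729 to 932 in the deleted arrays. Its brightest gene, the adaptor Blnk, did not pass, with a log2 fold change of -0.55. Macrophage and granulocyte markers (6 of 10 tested, 1 lower, brightest Lyz2) summed to 5.02 to 17 and 2.70 to 3.24, and dendritic cell markers (5 of 8, 1 higher and 1 lower, brightest Xcr1) to 0.667 to 0.699 and 0.771 to 0.955. T cell markers (6 of 7, 2 higher, brightest Cd3e) summed to 0.213 to 0.240 and 0.289 to 0.326. Natural killer and innate lymphoid markers (4 of 8, 1 higher and 2 lower, brightest Klrd1) summed to 4.89 to 6.70 and 7.18 to 8.60. The median log2 fold change of the natural killer and innate lymphoid list was -1.09, against the direction of its sum. Stromal markers (6 of 9, 1 higher, brightest Col1a2) summed to 0.713 to 0.792 and 1.15 to 1.47, and Sparc among them rose by 1.63. Of the hepatocyte markers, Alb, Afp, Ttr, Apoa1, Ahsg and Fgb did not reach the filter, and of 3 erythroid markers tested 0 passed. The part of these other cells in the results on the members was not tested.

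**Figure D4:**
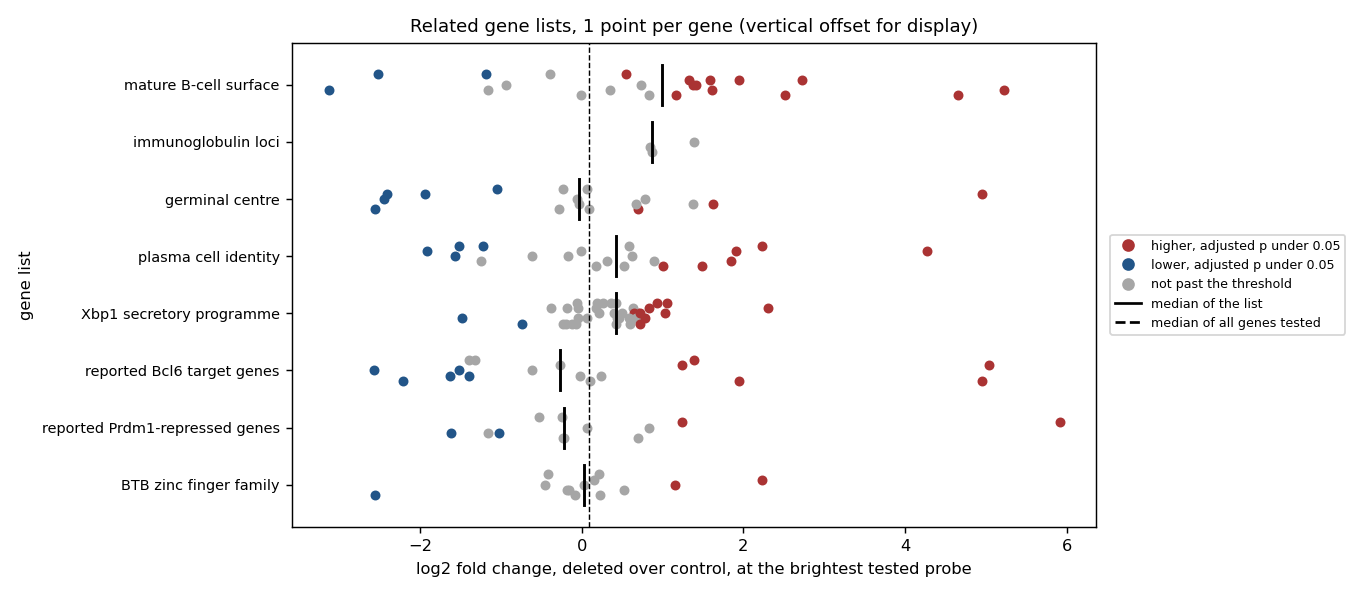
Log2 fold change, deleted over control, of each gene of 8 lists at its brightest tested probe, with 1 point per gene. A black bar marks the list's median and the dashed line the median of all genes tested, 0.10; red and blue points passed the threshold.

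Of 22 genes tested on a list of mature B cells, mostly surface molecules, 12 rose, 3 fell and 7 did not pass. The list's median was 1.00 against 0.10 over all genes. For this list and those that follow, the shares over all 13432 genes tested were 7.52% higher and 7.97% lower. Cd83, a marker of activated B cells, rose by 4.66 (SE 0.21, adjusted p = 0.000268) and Cd86, a costimulatory ligand for T cells, by 5.23 (SE 0.34, adjusted p = 0.000475), although Cd86 was above the 40th percentile in 1 of 2 controls only. Bank1, a scaffold of B-cell receptor signalling, rose by 2.51 (SE 0.35, adjusted p = 0.00669), and Fcer2a, the IgE receptor CD23, by 2.73 (SE 0.57, adjusted p = 0.0269). Those that fell were Vpreb3 (-3.13, SE 0.56, adjusted p = 0.0161), Cd72, an inhibitory coreceptor (-2.52, SE 0.24, adjusted p = 0.00185), and Cd1d1, which presents lipids (-1.19, SE 0.18, adjusted p = 0.00893). Vpreb3 was bright in the control pro-B cells, with a mean of 8.07, so its fall is not that of a gene of mature B cells alone. Without control 3 the counts were 5 higher and 1 lower, and Cd1d1 was no longer called (adjusted p = 0.0742). Vpreb3 was lost without control 3 (0.102) or control 6 (0.0631), and Fcer2a without any 1 array but control 6, with adjusted p up to 0.0923. Some of these molecules are also carried by dendritic cells, T cells and macrophages. In the deleted arrays dendritic and T cell markers summed higher, from low levels, with 1 dendritic marker called higher and 1 lower. Macrophage and granulocyte markers summed lower, at 2.70 to 3.24 against 5.02 to 17 in the controls. The part of such cells in these changes was not tested.

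Other immunoglobulin genes had few probes. Of 19 loci listed, 3 were read, and 0 passed: Ighg3 (0.84), Igha (0.87) and the lambda light chain segment Iglv1 (1.39, adjusted p = 0.059). Without control 6, 2 of the 3 were called higher. Features of near-identical immunoglobulin segments may share signal, so their separate levels are uncertain.

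Germinal centre genes, read beside Bcl6, which was itself not called, moved in both directions. Of 17 tested, 3 rose and 5 fell, with a median of -0.04. Gpr183, the oxysterol receptor that positions B cells in follicles, rose by 4.95 (SE 0.31, adjusted p = 0.000406). It is also among the reported targets that Bcl6 represses, given below, so its rise is not read as a gain of a germinal centre state. Mef2c, a transcription factor of B-cell proliferation, rose by 1.63 (SE 0.28, adjusted p = 0.0146), and the adaptor Stap1 by 0.70 (SE 0.16, adjusted p = 0.0356). Ezh2, the histone methyltransferase of the Polycomb complex, fell by 2.41 (SE 0.31, adjusted p = 0.00511) and the change in the transcription factor Mybl1 was -2.44 (SE 0.50, adjusted p = 0.0257). S1pr2, which holds B cells in the germinal centre, fell by 1.93 (SE 0.31, adjusted p = 0.0111), and its other probes gave -1.05 and -0.28. Bcl6b was below the 40th percentile in all 3 deleted arrays and was at least 2.26-fold lower (adjusted p = 0.0157). The fifth to fall was the death receptor Fas (-1.05), named after its value was seen. Without control 3 the counts were 2 higher and 1 lower, without control 6 1 and 2, and without deleted 4 or 5 2 and 3. Stap1 was lost without any 1 of the 5 arrays (adjusted p up to 0.144), Mybl1 without any but deleted 7 (up to 0.114), S1pr2 without control 3 (0.0947) and Mef2c without control 6 (0.073).

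Plasma cell genes gave calls in both directions beside Prdm1. Of 20 tested, 6 rose and 4 fell, with a median of 0.42. Itgb7, an integrin subunit, rose by 4.27 (SE 0.29, adjusted p = 0.000573) and Ckap4, a protein of the rough endoplasmic reticulum, by 1.91 (SE 0.18, adjusted p = 0.00176). Zbtb32, a repressor of the BTB family, and Cd28, a costimulatory receptor, did not reach the 40th percentile in the controls. Cd28 is also among the 2 T cell markers called higher above, read at the same probe. The bound was at least 1.74-fold higher for Zbtb32 (adjusted p = 0.0307) and at least 1.39-fold higher for Cd28 (adjusted p = 0.0405), and both calls were lost without any 1 of the 5 arrays (up to 0.105 and 0.13). Slamf7, a surface receptor, fell by 1.91 (SE 0.26, adjusted p = 0.00642), and the log2 fold change was -1.57 for Cd93 (SE 0.15, adjusted p = 0.00195) and -1.52 for the B-cell coactivator Pou2af1 (SE 0.26, adjusted p = 0.0146). Cd93 and Pou2af1 were bright in the control pro-B cells, with means of 6.60 and 7.97, so they are not genes of plasma cells alone. Eaf2 fell by 1.22 (SE 0.16, adjusted p = 0.00527), while its other probe gave 0.67. The defining plasma cell genes, named after their values were seen, did not pass: Sdc1, the surface marker CD138, gave 0.62 (adjusted p = 0.191), Jchain, which joins IgM chains, 0.59 (0.288), Mzb1 -0.17 (0.633) and the transcription factor Irf4 -0.61 (0.082). Tnfrsf17, the survival receptor BCMA, did not reach the filter. The counts were 2 and 3 without control 3 or control 6, 4 and 4 without deleted 4, 2 and 4 without deleted 5, and 3 and 5 without deleted 7. Pou2af1 was lost without control 3 (adjusted p = 0.0999) or control 6 (0.0652).

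Genes of the secretory pathway and the unfolded protein response moved upward in part. The list mixes targets of Xbp1 with genes that act upstream of it or beside it, such as Ern1, Eif2ak3 and Atf6. Its counts therefore do not read the activity of Xbp1. Of 37 tested, 10 rose and 2 fell, with a median of 0.42. Fkbp11, a folding enzyme abundant in secretory cells, rose by 2.30 (SE 0.31, adjusted p = 0.00642), and Hspa5, the chaperone BiP of the endoplasmic reticulum, rose from 4.38 ± 0.38 (SD, n = 2) to 5.41 ± 0.13 (SD, n = 3), by 1.03 (SE 0.20, adjusted p = 0.0207). Sdf2l1 and Manf, proteins of the same compartment, rose by 1.06 (SE 0.21, adjusted p = 0.0241) and 0.93 (SE 0.16, adjusted p = 0.0127). Both genes that fell belong to the pathway that removes misfolded proteins: Derl3 at -1.48 (SE 0.26, adjusted p = 0.015) and Herpud1 at -0.74 (SE 0.14, adjusted p = 0.0212). These calls are near the threshold: they numbered 1 higher and 1 lower without control 3, 2 and 0 without control 6, 3 and 2 without deleted 4, 2 and 2 without deleted 5, 9 and 1 without deleted 7, 2 and 1 without the variance trend, 4 and 1 without scaling, and 5 and 1 with Xist level as a block. Each of the 6 named genes but Fkbp11 was lost in at least 1 of these single-array fits: Hspa5 without control 3, deleted 4 or 5 (adjusted p up to 0.137), Sdf2l1 without control 3, 6 or deleted 5 (up to 0.103), Manf without control 3 or 6 (up to 0.0959), Derl3 without control 6 (0.063) and Herpud1 without control 3, 6 or deleted 7 (up to 0.137).

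Genes reported as targets of Bcl6, which represses them, were split evenly: of 17 tested, 5 rose and 5 fell, with a median of -0.27. Besides Gpr183 and Prdm1, a member itself, those that rose included the chemokine Ccl3 (5.04, SE 0.51, adjusted p = 0.00226) and S1pr1, the receptor for exit from lymphoid organs (1.94, SE 0.19, adjusted p = 0.00206). Those that fell included Cdkn1a, an inhibitor of the cell cycle (-2.57, SE 0.20, adjusted p = 0.00104), Cd69, which retains cells by opposing S1pr1 (-2.21, SE 0.33, adjusted p = 0.00855), Id2, an inhibitor of E proteins (-1.63, SE 0.20, adjusted p = 0.00457), and the survival gene Bcl2l1 (-1.52, SE 0.29, adjusted p = 0.0197). With control 3, control 6 or deleted 5 left out, the genes that fell numbered 3, and Bcl2l1 was among those lost (adjusted p up to 0.0899).

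Genes reported as repressed by Blimp-1 were also split, with 2 of 12 higher, 2 lower and a median of -0.22. Myc is on this list and on that of the Bcl6 targets and counts as higher in each, so the counts are not separate. The 12 include Ebf1, the deleted gene, and Bcl6, a member, and neither was called at its brightest probe. The level of Ebf1 is bound up with the deletion itself, so the list is not a separate reading of Blimp-1. Ciita, the activator of the MHC class II genes, rose by 5.91 (SE 0.44, adjusted p = 0.000831), and Myc, a driver of cell growth, by 1.24 (SE 0.21, adjusted p = 0.013). Tcf3, the E2A gene, fell by 1.61 (SE 0.21, adjusted p = 0.0058), and Id3, an inhibitor of E proteins like Id2, fell by 1.02 (SE 0.15, adjusted p = 0.00766). Without control 3 Tcf3 was lost (adjusted p = 0.0525), and without control 6 Myc was lost (0.0618).

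Of the other BTB zinc finger genes beside Bcl6 and Zbtb20, 13 were tested. Of these, 2 were called higher and 1 lower, where the shares over all genes were 7.52% and 7.97%. Counts this small give no result about the family. Zbtb7b, a regulator of T-cell fate, rose by 1.15 (SE 0.22, adjusted p = 0.0191) and Zbtb32 was the other that rose, while Bcl6b was the 1 that fell, and the median was 0.03. Without control 3 the counts were 0 and 0, without control 6 1 and 0, without deleted 4 or 5 0 and 1, and without deleted 7 1 and 1. Zbtb7b was lost without control 3, deleted 4 or deleted 5 (adjusted p up to 0.115).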

How the data were processed

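Total RNA (0.2 µg, Cy3) was read on 1-colour Agilent arrays, 1 per sample. The authors deposited 1 intensity per feature, linear and above 0, and the submitters' processing notes name Agilent Feature Extraction. Detection and saturation flags were not used here, and the background step is not given in the sources. The number of arrays limits the precision. Probes were named from GEO's platform annotation: 33653 features had 1 symbol, 56 several and 11309 none, and 33517 matched the RefSeq gene table by gene ID.

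Intensities were divided by each array's 75th percentile and taken as log2. Features above their array's 40th percentile on at least 2 of 5 arrays (28007) were fitted together in R 4.3.3 by limma 3.58.1 (lmFit, then eBayes with a variance trend), deleted against control with no covariate. The script was tested on simulated data with 200 changed features, where it called 72% of 8-fold changes and 2.6% of 2-fold changes. Far fewer features changed there than were called here, so these shares need not hold for the real arrays. A gene that did not pass is therefore not shown to be unchanged. Where a group lay below the 40th percentile on every array, the fold is a bound against that percentile. Lists use each gene's brightest tested probe, and up to 4 called genes per direction are named, the largest first.

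The members, lists and rules were chosen with earlier results of these data known. The averaging of 10 Ighm features was chosen after seeing the data. Promoters are from RefSeq GRCm38.p6. Alternatives changed scaling, filter, variance model, probe choice, an Xist block and single arrays left out.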

Additional observations from a re-analysis of the deposited data

How the results depend on the processing

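With 2 and 3 arrays a group, single arrays decide many calls. Features called numbered 3587 (1661 higher, 1926 lower), and 2383 without scaling (811 higher, 1572 lower), 2386 with Xist level (high or low) as a block, 2324 with the brightest probe per gene, 2074 with the mean of a gene's probes, and 996 to 2893 with 1 array left out, fewest without control 3. The main fit tested 28007 features, whereas the fit with the brightest probe per gene tested 13419 genes and that with the mean of probes 12734. The counts from these per-gene fits are therefore in another unit and do not show calls lost. Member probes called numbered 6 of 21 tested, and 3 without scaling, 3 without the filter, 2 without the variance trend, and 2 to 3 with 1 deleted array left out. With the brightest probe per gene, 7 member probes were tested and 3 called, for the same 3 genes as in the main fit. Member genes called numbered 3, and 1 without the variance trend and 1 to 2 with 1 array left out; Ms4a1 was called in every fit that tested it. No called member changed direction under the alternatives run. Scaling moved the median log2 fold change of all features from 0.09 to 0.14 with median scaling and -0.05 without scaling. No paired analysis was possible because the groups share no sample number. Ighm U26470 and Cr2 feature 2 were too dim to be tested.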
